A study of Mus musculus with 3 samples.

Results

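Chemokine ligands and chemokine receptors were examined in 3 arrays of sieved adult mouse renal corpuscle, the glomerular capillary tuft with its capsule. The members were all genes of the array annotation whose symbol begins with Ccl, Cxcl, Ccr, Cxcr or Ackr and a number, or is Xcl1 or Xcr1. Only probe sets that name 1 gene were used, and a gene with several took the probe set with the highest mean signal. This gave 54 of the 19938 genes analysed, 33 ligands and 21 receptors. All 3 samples belong to 1 group and came from CD-1 males, an outbred wild-type stock, aged 7 to 9 weeks, with no treatment named. Each was a pool of about 2 kidneys, digested in 0.5% collagenase A for 15 min at 37 °C and passed over filters of 100, 70 and 40 µm, and its total RNA was amplified in 1 round. Nothing was sorted, so the pools held capillary endothelium, mesangium, podocytes, capsule cells, blood cells left in the tuft and passing tubule fragments. No label ties the pools to separate litters or days, so part of the spread between them may be technical. The series has no comparison group, so the data answer which members had a signal above background and how far the preparations differed.

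Chemokines are small secreted proteins that draw leukocytes along a gradient. They are named after the spacing of their first cysteines (CC, CXC and XC), and they act on receptors that cross the membrane several times and signal through inhibitory G proteins, whereas the atypical receptors (Ackr) take ligands up without that signal. Some, such as Cxcl12, are made steadily and guide the homing of cells and the growth of vessels, glomerular capillaries included. Others, such as Cxcl1 and Ccl2, are induced in inflammation and bring neutrophils and monocytes into the inflamed glomerulus.

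Values are log2 signals of the deposited table, and linear signals are their antilogs, taken from the mean over arrays. Background was the 95th percentile, over 1212 probe sets, of the signals of odorant and vomeronasal receptor genes, little used outside sensory tissue, and lay at 6.90, 6.96 and 6.92 log2 on replicates 1, 2 and 3. A gene was called detected when its distance above that level passed a one-sided limma test fitted over all genes, with a Benjamini-Hochberg adjusted p under 0.05. The standard error of that fit followed the level of a gene and not its own spread, so the call was in effect a cut close above background and each mean below carries its SD over arrays. Every probe set has its own affinity, and levels were therefore set against background and not against each other. In whole corpuscles, fewer cells of a type and less RNA per cell cannot be told apart.

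Of the 54 members, 17 (31.5%) were detected, against 58.9% of all genes. By role these were 6 of 19 CC ligands, 5 of 13 CXC ligands, 2 of 10 CC receptors, 2 of 6 CXC receptors and 2 of 4 atypical receptors, while Xcl1 and its receptor Xcr1 were not detected. The median member lay at -0.27 log2 relative to background, and the median of all genes at 0.37. For ligands the median was -0.21 and for receptors -0.54. A linear signal of 150 on every array was exceeded by 14 members (25.9%, all genes 51.3%). Over 500 there was 1 member, Cxcr4 (1.85%, all genes 17.2%), and over 1000 there were 0 (all genes 7.59%). The study ties a raw signal of 500 very roughly to detection by in situ hybridization. It did so for podocyte genes under its own processing, and the scale here may differ. The 17 detected members were above background on all 3 arrays, and of the 37 others only Ccl24 exceeded it on any array, which was replicate 1. Near the limit of the call, 3 detected members lay less than 0.2 log2 above background and 4 undetected members less than 0.2 below it.

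**Figure D1:**
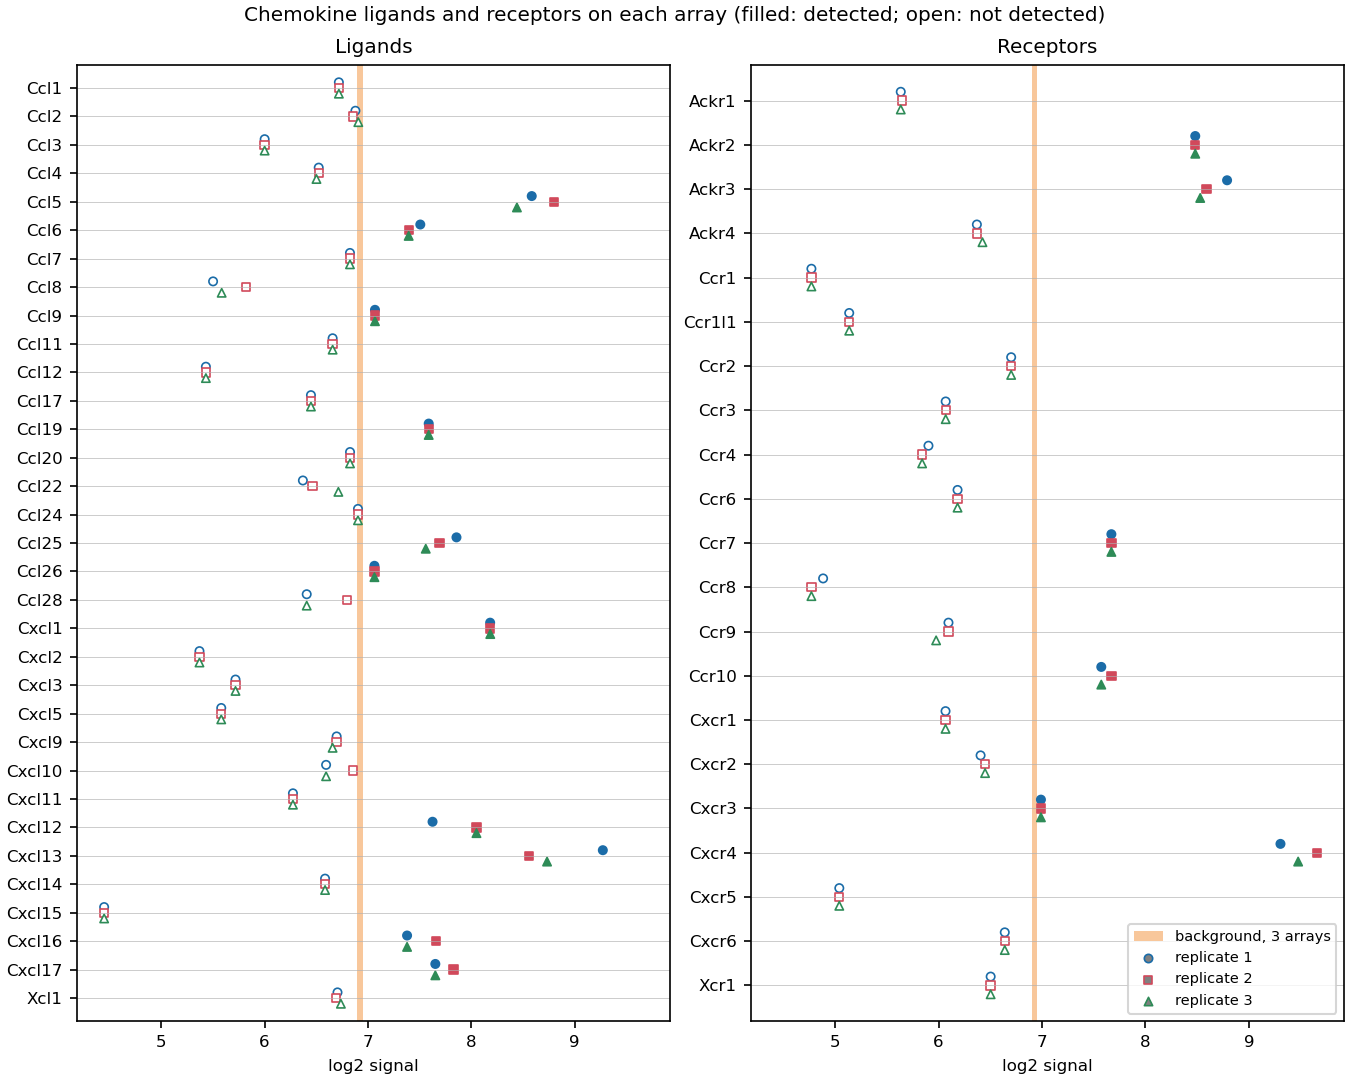
log2 signal (horizontal axis) of each chemokine ligand (left) and receptor (right) on replicates 1, 2 and 3, with filled symbols for detected and open symbols for undetected genes; the orange band spans the background levels, 6.90 to 6.96. Cxcr4, Cxcl13, Ackr3, Ccl5, Ackr2 and Cxcl1 lie more than 1 log2 above the band, and 37 genes have open symbols.

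The receptor Cxcr4, its ligand Cxcl12 and the atypical receptor Ackr3, which binds and clears the same ligand, were all detected. Cxcr4 had log2 signals of 9.31, 9.66 and 9.48 on replicates 1, 2 and 3, a mean of 9.48 ± 0.18 (SD, n = 3) and a linear signal of 714. It stood 2.56 log2 above background, and on each array it was more than 2 log2 above it, with a range over arrays of 0.35. Cxcl12 had 7.62, 8.05 and 8.05, a mean of 7.91 ± 0.25 (linear 240) that is 0.98 above background. Replicate 1 was the low array for Cxcl12 and also for Cxcr4. Ackr3 had 8.79, 8.59 and 8.53, a mean of 8.64 ± 0.14 (linear 398, 1.71 above background), and was highest on replicate 1. Endothelial markers were detected in 10 of 10 cases with a median of 3.95 log2 above background, podocyte markers in 8 of 8 with a median of 4.37 and mesangial markers in 8 of 8 with a median of 3.39. Capsule (parietal) epithelial markers were detected in 5 of 6 cases, those of proximal tubule in 9 of 10 and those of loop, distal tubule and collecting duct in 6 of 8, with medians of 0.55, 0.85 and 1.20. Which of these cells carried the 3 transcripts was not tested.

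The promoter of Cxcr4 is shown because no other member had a linear signal over 500 on every array. It is the 250 bases before the RefSeq start on GRCm38.p6, chr1:128592300-128592549, minus strand, written 5′ to 3′. Capitals mark the letters TATAAA, 30 to 25 bases before the start, and an overlapping match on the other strand, 32 to 27 bases before it.
Cxcr4: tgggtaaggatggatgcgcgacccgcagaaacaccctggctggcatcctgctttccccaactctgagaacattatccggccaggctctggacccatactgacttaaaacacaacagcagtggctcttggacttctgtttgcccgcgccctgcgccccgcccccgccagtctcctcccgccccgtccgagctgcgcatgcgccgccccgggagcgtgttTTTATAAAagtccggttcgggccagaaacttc

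Cxcl13, Ccl19, Ccl25 and their receptors are known from lymphoid tissue and gut. Cxcl13, which attracts B cells into follicles through Cxcr5, had 9.27, 8.55 and 8.73 log2, a mean of 8.85 ± 0.37 (SD, n = 3) and a linear signal of 462. It lay 1.93 above background, and between 1.71 and 2.09 when each array was left out in turn. Replicate 1 exceeded replicate 2 by 0.72 log2, the largest range of any member. Cxcr5 held 5.04 on every array, -1.88 relative to background. Of 5 B cell markers analysed, 2 were detected, Cd79b at 7.21 ± 0.22 and Pax5 at 7.00, whereas Cd79a and Ms4a1 were not. Summed linear signals of the B cell markers were 596, 552 and 549 on replicates 1, 2 and 3. Replicate 1, where Cxcl13 was highest, also had the highest sums of the T cell, neutrophil, podocyte and endothelial markers, and the part of any cell type in the Cxcl13 signal was not tested.

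The Cxcl13 promoter, chr5:95956689-95956938 on the plus strand of GRCm38.p6, is shown beside that of Cxcr4 because both genes had TATAAA within 50 bases of the start. In Cxcl13 the capitals lie 46 to 41 bases before it.
Cxcl13: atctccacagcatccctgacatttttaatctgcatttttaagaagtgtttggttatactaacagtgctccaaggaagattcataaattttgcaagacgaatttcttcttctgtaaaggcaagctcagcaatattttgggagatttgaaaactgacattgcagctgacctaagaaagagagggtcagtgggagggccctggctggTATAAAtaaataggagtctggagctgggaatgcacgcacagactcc

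Ccl19 and its receptor Ccr7, the pair that brings dendritic cells and T cells into lymph nodes, were both detected. Ccl19 held 7.59 log2 on every array (linear 192, 0.66 above background). It had 5 probe sets with means from 7.37 to 7.59, and the mouse genome carries near-identical copies of it, so the signal cannot be assigned to 1 locus. Ccr7 held 7.67 on every array (linear 204, 0.75 above background). Ackr4, which clears Ccl19 and Ccl25, had 6.37, 6.37 and 6.42, below background on all arrays. T cell markers were detected in 2 of 8 cases, Cd3e at 7.36 and Cd2 at 7.28 ± 0.18, and Cd4, Cd3d and Cd8b1 were not detected. Their summed signals ranged from 903 to 947.

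Ccl25, known from thymus and small intestine, had 7.86, 7.69 and 7.56 log2, a mean of 7.70 ± 0.15 (SD, n = 3; linear 208) that is 0.78 above background. A further probe set of Ccl25 held 7.00 on every array, close to background, so the level of this gene depended on the probe set. Its receptor Ccr9 had 6.09, 6.09 and 5.98 and was not detected. Ccr10, the receptor of skin and mucosal homing, had 7.57, 7.67 and 7.57 (mean 7.61 ± 0.06, linear 195, 0.68 above background), with replicate 2 the high array. Its ligand Ccl28 showed the same order, 6.41, 6.80 and 6.41, with all 3 values below background.

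Inflammatory CC ligands fell on both sides of background. Ccl5, which attracts T cells and monocytes, had 8.58, 8.80 and 8.44 log2, a mean of 8.61 ± 0.18 (SD, n = 3) and a linear signal of 390, which is 1.68 above background. Replicate 2 was highest and replicate 3 lowest. Ccl6, a ligand of Ccr1 in mice, had 7.51, 7.39 and 7.39 (mean 7.43 ± 0.06, 0.51 above background). Ccl9, another Ccr1 ligand, held 7.07 on every array, 0.14 above background. Ccl3 and Ccl4, the macrophage inflammatory proteins encoded beside these genes, were not detected, at -0.92 and -0.41 log2 relative to background.

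The monocyte attractants that act through Ccr2 were near or under background. Ccl2 had 6.88, 6.86 and 6.91 log2, -0.04 relative to background, the nearest undetected member after Ccl24. Ccl7 held 6.83 on every array (-0.10), Ccl12 5.43 (-1.49), and Ccr2 itself 6.70 (-0.22). Ccl8, an agonist of Ccr8 in mice, had 5.50, 5.82 and 5.59. The receptors of the other inflammatory CC ligands were not detected either, with Ccr1 at 4.77 on every array (-2.15), Ccr1l1 at 5.13 (-1.79) and Ccr3 at 6.07 (-0.86). Markers of monocytes, macrophages and dendritic cells were detected in 9 of 15 cases. Among them Mrc1 stood at 10.27 ± 0.12, Tyrobp at 9.08 ± 0.41, Lyz2 at 8.83 ± 0.46 and Cd14 at 8.78, while Adgre1, Itgam and Cd163 were not detected.

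The other CC ligands and receptors follow, beginning with the eotaxins, which attract eosinophils. Ccl26 held 7.06 log2 on every array, 0.14 above background. The eotaxin Ccl24 held 6.90 on every array, -0.02 relative to the mean background, and Ccl11 6.66 (-0.27). The pair Ccl17 and Ccl22 had means of 6.45 and 6.52, and their receptor Ccr4 had 5.90, 5.84 and 5.84. Ccl22 spread from 6.37 on replicate 1 to 6.71 on replicate 3. Ccl20, a ligand of mucosal surfaces, held 6.83 (-0.10) and its receptor Ccr6 6.18. Ccl1 held 6.72, Ccr8 had 4.88, 4.77 and 4.77, and Xcl1 and Xcr1, which mark the exchange between lymphocytes and cross-presenting dendritic cells, had means of 6.71 and 6.50.

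Among the neutrophil-attracting CXC ligands within the naming rule, only Cxcl1 was detected. The platelet chemokine Ppbp lies outside that rule and was detected at 8.62 ± 0.05 log2, 1.70 above background. Cxcl1 had 8.18 log2 on each array, with an SD of 0.00070, a linear signal of 291 and a distance of 1.26 above background. Its close relatives within the rule lay far below background, Cxcl2 at 5.37 on every array (-1.55), Cxcl3 at 5.72 (-1.20) and Cxcl5 at 5.58 (-1.34). Cxcl15, a lung chemokine, was at 4.45 (-2.47). The receptors were not detected, with Cxcr2 at 6.41, 6.45 and 6.45 and Cxcr1 at 6.07 on every array. Of 9 neutrophil markers 3 were detected, S100a9 at 9.18 ± 0.02, S100a8 at 7.56 ± 0.23 and Csf3r at 7.12 ± 0.02, and Ly6g, Mpo and Elane were not.

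Cxcl1 and Cxcl2 are shown together because they are neighbours on chromosome 5, differ in detection and hold the same NF-kappaB letters, the binding site of the main inflammatory transcription factor. Cxcl10 is added because it holds that consensus and the interferon response letters GAAANNGAAA and is taken up in the next comparison. Each is the 250 bases before the RefSeq start on GRCm38.p6, 5′ to 3′, with the matches in capitals. Cxcl1 lies at chr5:90890995-90891244 on the plus strand, Cxcl2 at chr5:90903649-90903898 on the plus strand and Cxcl10 at chr5:92348890-92349139 on the minus strand.
Cxcl1: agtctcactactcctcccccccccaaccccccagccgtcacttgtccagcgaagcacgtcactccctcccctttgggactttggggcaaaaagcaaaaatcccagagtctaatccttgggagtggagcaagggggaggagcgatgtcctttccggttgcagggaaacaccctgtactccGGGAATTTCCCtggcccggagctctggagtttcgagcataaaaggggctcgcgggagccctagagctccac
Cxcl2: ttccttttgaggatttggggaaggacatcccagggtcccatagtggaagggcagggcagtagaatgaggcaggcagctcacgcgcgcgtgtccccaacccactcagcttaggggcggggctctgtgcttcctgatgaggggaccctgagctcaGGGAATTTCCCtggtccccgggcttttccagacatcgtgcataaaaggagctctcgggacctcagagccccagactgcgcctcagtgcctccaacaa
Cxcl10: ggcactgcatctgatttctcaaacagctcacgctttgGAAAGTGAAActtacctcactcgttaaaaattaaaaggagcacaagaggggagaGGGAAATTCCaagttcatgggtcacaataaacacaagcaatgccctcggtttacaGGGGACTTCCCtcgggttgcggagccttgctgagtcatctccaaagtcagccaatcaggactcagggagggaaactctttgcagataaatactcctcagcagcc
The capitals of Cxcl1 and Cxcl2 begin 71 and 97 bases before the start, and in each a match on the other strand overlaps the match on the printed strand. In Cxcl10 the interferon letters lie 213 to 204 bases before the start, and NF-kappaB matches begin at 159, 104 and 103 bases, the last of them overlapping.

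Over the RefSeq windows, 40 of 54 members had a promoter, in 42 windows, and the search took both strands and kept overlapping matches. The NF-kappaB consensus was found in 11 member windows (26.2%) against 7.25% of all 32851 windows. It stood in 8 of 30 windows of undetected members and in 3 of 12 windows of detected members. The letters GAAANNGAAA were found in 3 member windows (7.14%, all windows 2.98%), those of Cxcl10, Cxcl14 and Ccl19. TATAAA was found in 13 member windows (31.0%) against 12.4% of all, among them 5 of 12 windows of detected members. These are matches of letters, and whether any of them is bound or used was not tested.

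The interferon-induced ligands of Cxcr3, which bring activated T cells into tissue, were not detected on any array. Cxcl9 had 6.70, 6.70 and 6.66 log2, and Cxcl11 held 6.27. Cxcl10 had 6.60, 6.86 and 6.60, so that replicate 2 was the high array yet lay below its background of 6.96. Cxcr3 held 6.99 on every array, 0.07 above background, the detected member closest to it. The call of Cxcr3 was lost without replicate 1, at 0.05 log2 above background, and without replicate 3, at 0.06 log2 above it.

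Replicate 2 stood apart for interferon-stimulated genes outside the chemokine family, whereas of the ligands above only Cxcl10 was highest there. Of 16 analysed, 15 were detected, all 15 were highest on replicate 2, and 10 differed more than 2-fold between arrays. The antiviral effector genes Ifit3 and Ifit2 had 10.64, 11.93 and 10.34 log2 and 9.65, 10.02 and 9.43. Psmb8, a subunit of the immunoproteasome, had 9.40, 10.05 and 9.38, and the GTPase gene Iigp1 had 8.97, 10.51 and 8.74. The distance varied over the list, and for Rsad2, named after its values were seen, replicate 2 was barely above replicate 1, with 8.97, 8.99 and 8.29. Mx1 was not detected. Summed linear signals of the list were 6830, 13997 and 5711 on replicates 1, 2 and 3. Among the 17 detected chemokine genes, 5 (29.4%) were highest on replicate 2 alone, against 8.74% of all detected genes. These were Ccl5, Ccr10, Cxcl16, Cxcl17 and Cxcr4. The differences were small, and 0 detected members were more than 2-fold apart between any arrays, a distance passed by 0.221%, 0.0851% and 0.323% of detected genes in the 3 pairs. Highest on replicate 1 alone were 4 (all detected genes 20.9%) and on replicate 3 alone 0 (13.1%). Summed signals of the macrophage and dendritic markers were 4403, 4510 and 3864 on the 3 arrays. The part of interferon or of leukocyte number in the replicate 2 values was not tested.

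**Figure D2:**
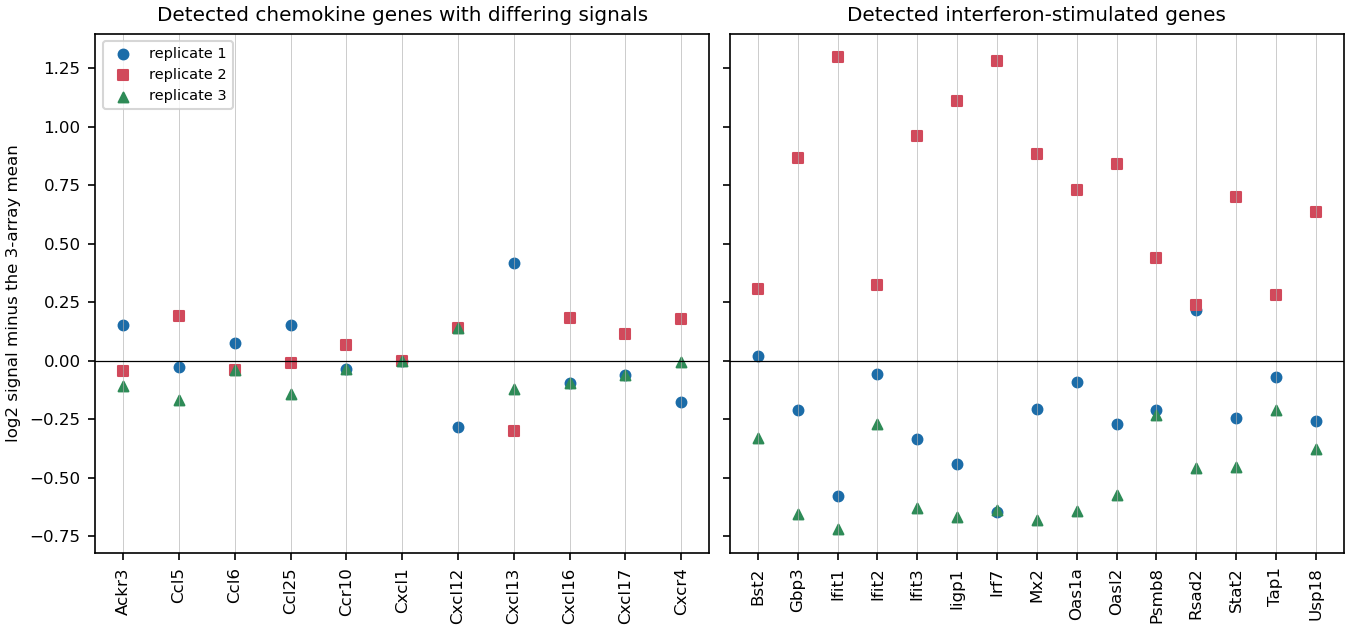
log2 signal on each array minus the mean of the 3 arrays (vertical axis) for the 11 detected chemokine genes whose signals differ between arrays (left) and for 15 detected interferon-stimulated genes (right). Every interferon-stimulated gene is highest on replicate 2, and 10 of them differ over 2-fold between their lowest and highest array, whereas the chemokine genes stay within 0.72 log2 and Cxcl13 has the widest range.

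The remaining CXC ligands were Cxcl16, Cxcl17 and Cxcl14. Cxcl16, a membrane-bound ligand that also takes up oxidised lipoprotein, had 7.38, 7.66 and 7.38 log2, a mean of 7.47 ± 0.16 (SD, n = 3; linear 177) that is 0.55 above background. Its receptor Cxcr6 held 6.64 on every array and was not detected. Cxcl17, a chemokine of mucosal surfaces, had 7.65, 7.83 and 7.65 (mean 7.71 ± 0.10, linear 209, 0.79 above background). Both were high on replicate 2 by less than 0.3 log2. Cxcl14 held 6.59 and was not detected.

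Of the atypical receptors, Ackr2 was detected along with Ackr3. Ackr2, which clears inflammatory CC chemokines, held 8.48 log2 on every array, a linear signal of 357 and 1.56 above background. Ackr1, the Duffy receptor of red cells and venules, had 5.63, 5.64 and 5.63, far below background. The median of the 4 atypical receptors was 0.51 log2 above background, that of the 10 CC receptors -0.86 and that of the 6 CXC receptors -0.39.

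Textbook pairs of ligand and receptor were then set side by side. Of 42 pairs listed, 39 were analysed, and both members were detected in 5 of them, Cxcl12 with Cxcr4, Cxcl12 with Ackr3, Ccl19 with Ccr7, Ccl5 with Ackr2 and Cx3cl1 with Cx3cr1. The last is the fractalkine pair, which the naming rule leaves out. Cx3cl1 held 8.16 log2 on every array and Cx3cr1 had 7.98, 8.16 and 7.98. The ligand alone was detected in 11 pairs, such as Cxcl13 with Cxcr5, Cxcl1 with Cxcr2, Ccl25 with Ccr9, Cxcl16 with Cxcr6 and Ccl5, Ccl6 and Ccl9 with Ccr1. The receptor alone was detected in 6, among them Ccr10 with Ccl28 and Cxcr3 with Cxcl9, Cxcl10 and Cxcl11. Neither was detected in 17. Transcripts of a pair in 1 pool do not show that the cells meet or that protein is made.

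**Figure D3:**
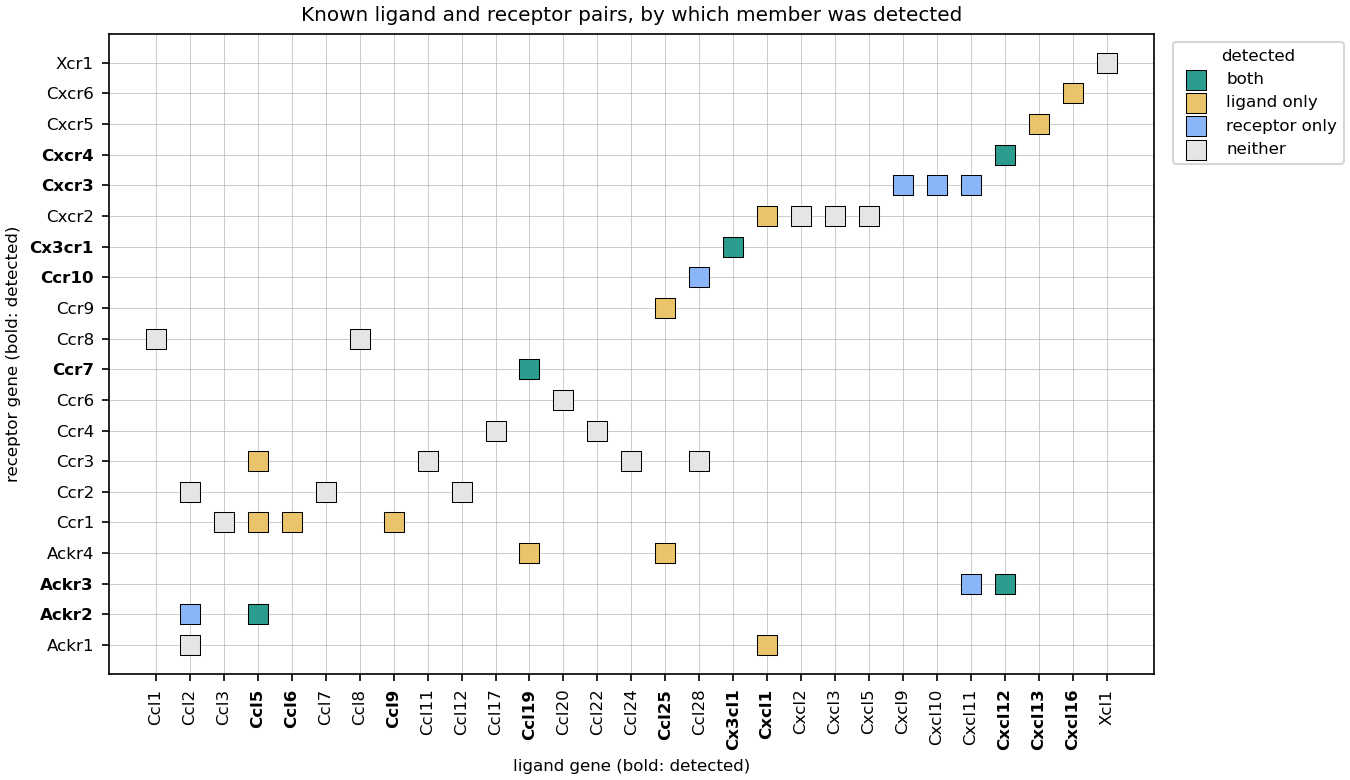
Textbook pairs of chemokine ligand (horizontal axis) and receptor (vertical axis), with bold names for detected genes and colours for which member was detected. Both members were detected in 5 of 39 pairs, the ligand alone in 11, the receptor alone in 6 and neither in 17.

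The members were also followed along the genome. In the order of the RefSeq table, 4 runs of at least 4 members with gaps under 500 kb hold 23 members, of which 4 were detected. Outside such runs 13 of 31 members were detected. Both shares lie below the 58.9% of all genes. On chromosome 11, the run of Ccl2, Ccl7, Ccl11, Ccl12, Ccl8 and Ccl1 had 0 of 6 detected, and the run of Ccl5, Ccl9, Ccl6, Ccl3 and Ccl4 had 3 of 5. The run of Cxcl5, Cxcl3, Cxcl15, Cxcl1 and Cxcl2 on chromosome 5 had 1 of 5. On chromosome 9, Ccr9, Cxcr6, Xcr1, Ccr1, Ccr1l1, Ccr3 and Ccr2 had 0 of 7. These counts are a description, and neighbours were not tested against other genes.

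Identical signals on different arrays, down to the last decimal, limit what the spread of a member can show. Of the 54 members, 29 (53.7%) had 1 value on all 3 arrays, a share close to the 54.2% of all genes, and among detected members it was 6 of 17 (35.3%, detected genes 44.0%). An SD of 0 is therefore not an error of 0. Ccl5, Ccl25, Cxcl13, Cxcr4 and Ackr3 were the 5 detected members with 3 different values. Only Cxcl13 spanned more than 1.5-fold between its lowest and highest array, as did 1.47% of detected genes. By pairs of arrays, 1 detected member passed 1.5-fold between replicates 1 and 2 (detected genes 0.817%), 0 between replicates 1 and 3 (0.63%) and 0 between replicates 2 and 3 (0.834%).

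Relatives of the family outside the naming rule were detected in 7 of 7 cases, with a median of 1.23 log2 above background. Rarres2, the precursor of the attractant chemerin, stood at 11.19 ± 0.01 log2, its binding receptor Ccrl2 at 9.59 ± 0.05 and its signalling receptor Cmklr1 at 7.81 ± 0.10. The platelet chemokines Ppbp and Pf4 were at 8.62 ± 0.05 and 7.42 ± 0.21, and 3 of 4 platelet markers were detected, Treml1 at 7.75, Gp5 at 7.74 ± 0.22 and Itga2b at 7.27, with summed signals from 669 to 733. The platelet marker Gp9 was not detected.

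Of 24 genes for signalling below chemokine receptors, 19 were detected, with a median of 1.34 above background. Detected members included the small G protein gene Rap1b at 12.62, the G protein subunit genes Gnb1 at 11.80 ± 0.05 and Gnai2 at 11.71 ± 0.05, and Rac1 at 11.52 ± 0.01. Dock2, Vav1 and Rgs1 were among the 5 undetected. Of 18 genes that cut, modify or hold chemokines 16 were detected, with a median of 1.68. Dpp4, a peptidase that inactivates Cxcl12, stood at 12.59 ± 0.03, and the heparan sulfate carriers Sdc2 and Sdc4 at 10.48 ± 0.04 and 10.27 ± 0.08, with the synthesis gene Ext2 at 10.00 ± 0.03. Mmp9 and Ctsg were not detected. Of the genes that control inflammation 16 of 16 analysed were detected, among them Ifngr1 at 10.68 ± 0.09, Ifnar2 at 10.66 ± 0.08, Tnfrsf1a at 9.68 ± 0.13 and Ifnar1 at 9.28. Most of these genes are used by many cell types, and their counts do not speak for leukocytes. Natural killer cell markers were detected in 2 of 6 cases, Gzma at 7.98 ± 0.18 and Prf1 at 7.71, with summed signals from 765 to 828.

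**Figure D4:**
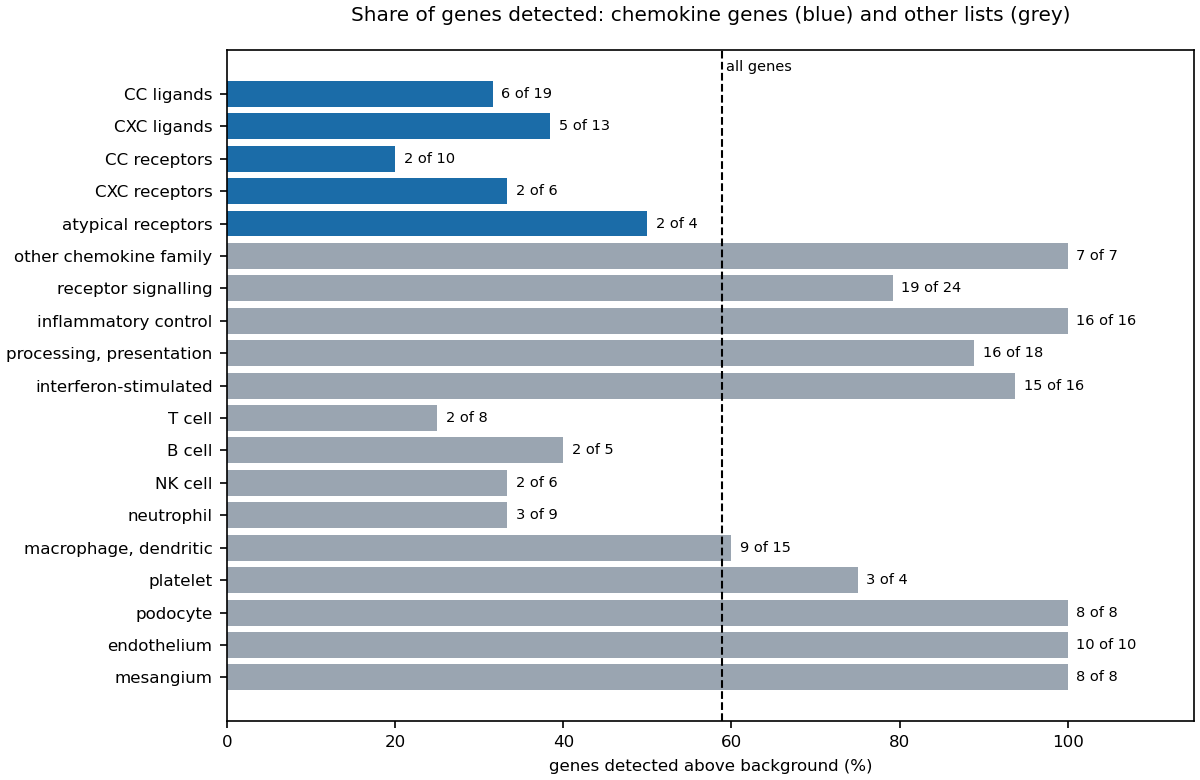
Share of genes detected above background (horizontal axis, percent) in 5 groups of chemokine genes (blue) and in other gene lists (grey), with the count beside each bar; the dashed line is the share of all genes, 58.9%. All 5 chemokine groups end below the line, from 2 of 10 CC receptors to 2 of 4 atypical receptors, and relatives outside the naming rule, podocyte, endothelial and mesangial lists reach 100%.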

How the data were processed

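Total RNA of 3 pools of sieved renal corpuscle was amplified with a NuGEN Pico kit and measured on Affymetrix mouse gene arrays. The values were deposited by the authors as log2 signals of 35557 probe sets. Affymetrix Expression Console is named in the submitters' processing notes, but the method and settings behind the table are not given in the sources used here. Array medians were 7.11, 7.11 and 7.09, no further normalization was applied, and the table holds 0 columns of other samples. Depth does not exist for arrays, and their number limits the precision.

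The platform annotation gave 1 symbol for 21789 probe sets, several for 1621 and none for 12147, and the current gene table changed 0 symbols. A probe set with several symbols was given to no gene. Detection was tested with limma 3.58.1 in R 4.3.3 (lmFit with an intercept, eBayes with a trend), fitted on 19938 genes and checked on simulated data. The simulated data held no ties between arrays, so that check does not cover tied signals. Ties between arrays can make p-values of single genes too small, so none is printed. Counts and motif searches used Python 3.11.15 with pandas 2.3.3 and numpy 2.4.6, and figures matplotlib 3.10.9. Promoters came from RefSeq (GRCm38.p6), without the bases after the start, and 14 members had none there. The NF-kappaB consensus, GAAANNGAAA and TATAAA were searched on both strands. A planned search of protein sequences was not run, and proteins were not analysed here.

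Named genes are every detected member on each array, undetected members by level, partners of detected members, and of each other list up to 4 detected genes of highest level and up to 3 undetected genes. Cmklr1, Pf4 and Rsad2 were named beyond this rule, after their values were seen. Cell type and pathway lists, pairs and members were chosen with earlier results of these data known. The alternatives were other background levels, no trend, quantile normalization, the mean of probe sets, a 1.5-fold limit and leaving out each replicate.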

Additional observations from a re-analysis of the deposited data

Results flagged for a closer look

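Probe sets that name several chemokine genes entered no count above, and their signals lay above background on all arrays. Of the Ccl27 family, whose product is a ligand of Ccr10, 3 such probe sets were present. The highest had 8.88, 8.88 and 8.84 log2 on replicates 1, 2 and 3, a mean of 8.87 that is 1.94 above background, and the others had a mean of 8.64. Of the Ccl21 family, whose product is a ligand of Ccr7, all 4 probe sets held 7.55 on every array, 0.62 above background. The mouse genome holds several near-identical copies of both genes, and which copy gave the signal was not tested.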

How the results depend on the processing

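The count of 17 detected members, 11 of them ligands and 6 receptors, depended on the background level. With the 99th percentile of receptors it was 10 (18.5%, 6 of them ligands), all among the 17. The share of all genes fell as well, from 58.9% to 41.7% (8313 genes). At that level 4 pairs were left because Ccl19 with Ccr7 was lost. With the median of receptors the count was 48 (88.9%, 31 ligands, 17 receptors), with 31 pairs in place of 5. The median gave 18031 of all genes (90.4%), so at that level the shares of members and of all genes were close. At the 99th percentile, levels relative to background were -0.13 for Ccl6, -0.49 for Ccl9, -0.50 for Ccl26, -0.089 for Cxcl16 and -0.57 for Cxcr3, and Ccl19 and Ccr10, at 0.03 and 0.05, were no longer called. Against a fixed signal of 150, Ccl9 was at -0.16, Ccl26 at -0.17 and Cxcr3 at -0.24. These alternatives differ in the level itself. Leaving out each replicate gave 16 to 17 members, 11 ligands, 5 to 6 receptors, 5 pairs and 1 member over 500, and the call lost was that of Cxcr3. The same 17 members were called without a trend, under quantile normalization and with the mean of probe sets. At 1.5-fold, 1 member differed between replicates 1 and 2, where 0 did at 2-fold. Over all members, detected or not, 9 were highest on replicate 2 alone and 4 on replicate 3 alone, a count added after the data were seen. No paired analysis was possible because all 3 samples belong to 1 group. Signals close to background limit the calls of Cxcr3, Ccl9 and Ccl26 most, and an undetected gene is not shown to be absent.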
